A study of Rattus norvegicus with 4 samples.

Results

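Lactotrophs, the prolactin-producing cells of the anterior pituitary, were taken from single-cell RNA-seq of dispersed rat pituitary cells by their hormone transcripts. A cell was a member when Prl held at least 2% of its UMIs (unique molecular identifiers, each counting 1 captured transcript), Gh1 under 5%, Pomc under 2% and Cga under 1%. There were 527 members among 7861 cells, which is 6.70% (exact binomial interval 6.16 to 7.28%). The study compared post-pubertal Sprague Dawley females of 44 days, collected in diestrus, with males of 59 days. Cells of 4 pituitaries per sex were pooled and run on a 10X Chromium chip in 2 lanes per sex, so the lanes of a sex repeat the capture of 1 pool and are not separate animals. Sex, pool and age cannot be told apart. Lanes are named below by their numbers of cells, 1868 and 1861 for females and 2047 and 2085 for males, and values are given in that order.

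Prolactin is made on the rough endoplasmic reticulum (ER), enters it through the translocon, is folded there, and is stored with granins in dense secretory granules. Its gene needs the pituitary transcription factor Pit-1 (Pou1f1), is raised by oestrogens, and is restrained by dopamine from the hypothalamus acting on the D2 receptor. Lactotrophs share the Pou1f1 lineage with the growth hormone-producing somatotrophs, here the 2017 cells over the Gh1 limit alone. The other cells were 880 over the Pomc limit alone, 485 over the Cga limit alone, 50 over more than 1 limit and 3902 under all 4.

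The lanes held 134, 123, 144 and 126 lactotrophs. Their shares of the cells were 7.17% (6.04 to 8.44), 6.61% (5.52 to 7.83), 7.03% (5.96 to 8.23) and 6.04% (5.06 to 7.15), and the lanes of the sexes overlapped. Together the members of a lane gave 2449781, 2379765, 1255651 and 1076982 UMIs. The median UMI count of a member was 16237, 19798, 7664 and 7304, so male members held fewer UMIs than female members. The other groups were divided. Medians in females and males were 6536 and 6627 in leukocytes, 11768 and 15571 in somatotrophs and 11559 and 11905 in Pomc cells. Male Cga cells also held fewer UMIs, at 8379 against 9618 in female ones. The cause was not tested.

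Prl itself chose the cells, and its values are a description. The median Prl share of a member's UMIs was 31.4, 30.1, 13.5 and 16.1%. The median number of Prl UMIs in a member was 5171, 5748, 1051 and 1170, and the median of its other UMIs, without the hormone genes, was 11008, 13325, 6528 and 6031. Both female lanes were above both male lanes in each of these values, with the wider gap in Prl. At least 40% of UMIs were Prl in 67 female and 7 male members, while 2 to 4% were Prl in 3 female and 19 male members. The members just inside the limit were 6 male cells with 2.04 to 2.40% Prl, and the cells just outside it held 2.00 to 1.38%. In leukocytes the median Prl share was 0.121, 0.125, 0.030 and 0.020%. It was taken as a guide to free RNA in each lane, which was not measured itself. Only 4 cells, 1 female and 3 male, were over both the Prl and the Gh1 limit.

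**Figure D1:**
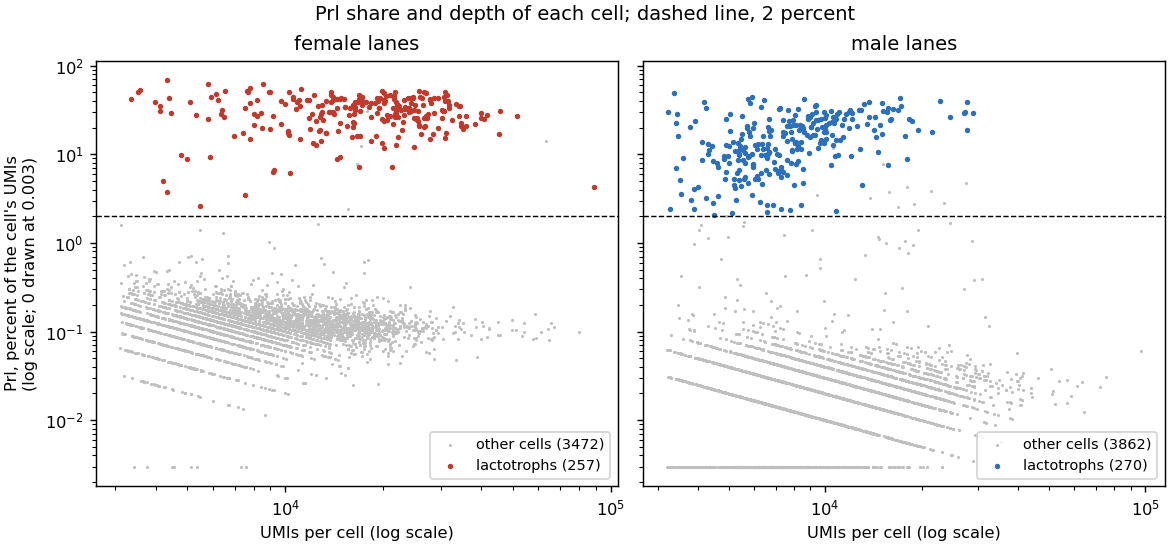
Prolactin share and depth of every cell, females on the left and males on the right. Each point is 1 cell at its total UMIs and at the percent of them that is Prl, both on log axes (a Prl count of 0 is drawn at the foot), with the 257 female and 270 male lactotrophs coloured, the other cells grey and the 2% limit dashed; nearly all other cells lie below 1% in both sexes.

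The labels of the sexes held in the members: the Y-linked gene Eif2s3y was at 0 UMIs in both female lanes and at 59.4 and 64.2 CPM (UMIs of a gene per 1000000 UMIs, here and in the comparison of the sexes after TMM scaling between lanes) in the males, and Kdm5d was at 0 in both female lanes and at 9.24 and 11 CPM in the males. Of the members, 1, 4, 3 and 0 per lane were marked as doublets, and 6, 12, 8 and 0 carried markers of another cell type, most of them of folliculostellate cells (5, 9, 8 and 0). Summed markers of folliculostellate cells came to 47.8, 59.7, 125 and 10.2 CPM without that scaling in the members, against 1927 in the cells under all 4 limits. On the same unscaled CPM, leukocyte markers came to 26.1, 33.2, 7.96 and 6.50, against 1133, and erythrocyte markers to 38.0, 38.7, 25.5 and 16.7, against 18003. Endothelial markers stood at 1.59 to 2.94 unscaled CPM, with 1 of the 4 markers at 0. All of these sums were far below those of the cells that carry them.

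The markers of the cell type were present. The homeobox gene Six6, which the limits did not use, had a UMI in 98.3% of members and in 7.28% of leukocytes. Hepacam2, a cell adhesion protein, was found in 88.2% of members and in 0.828% of leukocytes. Agtr1b, the angiotensin II receptor of the pituitary, was found in 66.2% of members and in 0.50% of leukocytes, and Drd2, the dopamine D2 receptor, in 44.2% and 0.66%. Summed over the members, Six6 stood at 814 CPM and Hepacam2 at 325, Agtr1b at 107 and Drd2 at 51.7 (unscaled CPM, not per length, so an order between genes is not read from them). Drd2 was next highest in Pomc cells, at 13.5 CPM, and Six6 in the cells under all 4 limits, at 159.

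Among the 4460 genes found in at least 20% of members, 49 were at least 3 times and 22 at least 10 times as high in lactotrophs as in the next of the other groups of cells. These ratios compare cells sorted by Prl with the rest and are given with no test. After Prl itself (312-fold), the leading genes were Klk1, a kallikrein protease whose reads can be split among near-identical family members (109-fold), Agtr1b (89.9-fold), the homeobox gene Irx6 (74.1-fold) and the keratin Krt25 (73.3-fold). Pla2g2f, a secreted phospholipase (38.8-fold), the receptor Gpr139 (27.7-fold), Sec14l3 (21.4-fold), the receptor tyrosine kinase Alk (18.8-fold) and Rprm, an inhibitor of the cell cycle (14.5-fold), followed. Irx6 stood at 57.1, 62.6, 91.6 and 82.6 unscaled CPM in the lanes, Alk at 17.6, 24.4, 78.0 and 70.6 CPM and Rprm at 78.8, 91.6, 157 and 174 CPM. Some of the genes that marked the cells were near 0 in the members of 1 sex. On the unscaled CPM Klk1 was at 410, 357, 15.1 and 21.4, Sec14l3 at 3.27, 1.68, 166 and 160, and the growth regulator Cgref1 at 229, 253, 8.76 and 26.9.

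**Figure D2:**
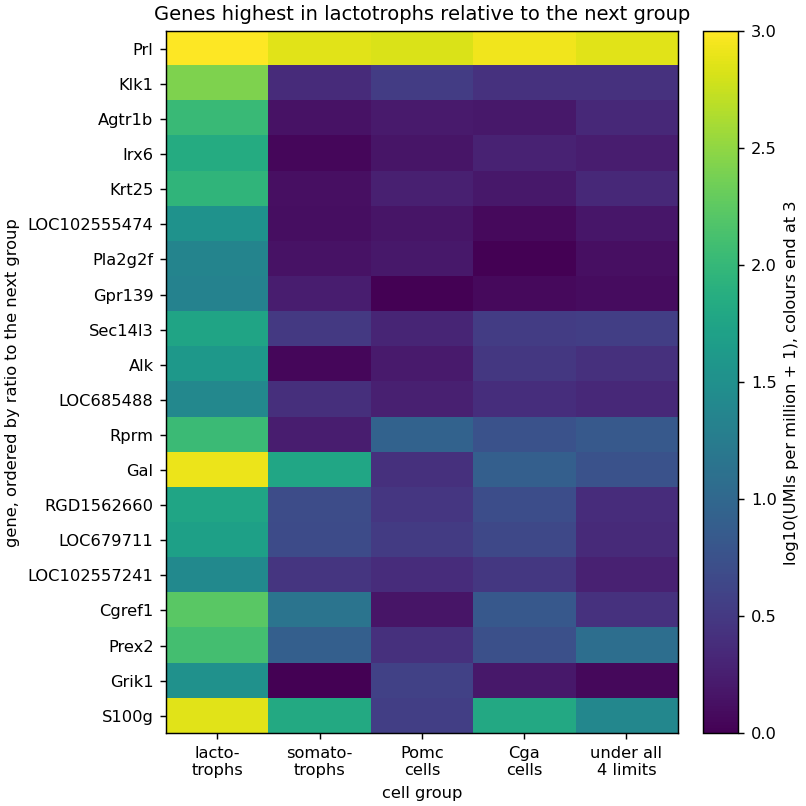
Levels of the 20 genes with the highest ratio of lactotrophs to the next group of cells, as colours on the scale log10(CPM + 1), which ends at 3, so that Prl is off the scale. Rows are genes in the order of that ratio and columns are groups of cells; Agtr1b stands at 107 CPM in lactotrophs and at most 1.19 CPM elsewhere, while Gal and S100g are also seen in somatotrophs (59.1 and 66.1 CPM).

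The Prl promoter is shown because all members are defined by its transcript. The 250 bases before the start site lie at chr17:38298218-38298467 on the minus strand (RefSeq, GRCr8, the sequence written 5′ to 3′ on the strand of the gene). The capitals mark 1 match to TATNCAT, the core of a Pit-1 binding site, read on the opposite strand and starting 24 bases before the start site.
Prl: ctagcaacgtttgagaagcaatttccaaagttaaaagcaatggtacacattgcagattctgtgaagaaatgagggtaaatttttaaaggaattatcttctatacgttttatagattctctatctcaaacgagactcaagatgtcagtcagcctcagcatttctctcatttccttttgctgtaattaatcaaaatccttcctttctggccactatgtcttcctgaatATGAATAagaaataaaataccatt
The word was found on either strand in 9.61% of 26717 rat promoters (250 bases before to 50 after the start) and in 3.33% of the 6400 with a promoter among the genes tested below. The full oestrogen response element, GGTCANNNTGACC, was in none of those 6400 and in 7 of all promoters. The 5 letters GGTCA were in 35.6% of the promoters of genes higher in females, 33.9% of those higher in males and 36.5% of all tested.

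The next question was how lactotrophs differed between the sexes. UMIs were summed over the members of each lane and 9290 genes were tested with edgeR's quasi-likelihood test at a Benjamini-Hochberg adjusted p below 0.001. The lanes are technical repeats, so the p-values measure the spread between lanes only. Females were higher in 657 genes (7.07% of those tested) and males in 286 (3.08%), and 374 and 208 of these differed by more than 2-fold. Without the lane of 1868 cells the counts were 558 and 155. Prl took 30.6, 30.3, 18.9 and 19.2% of all member UMIs, and the split moved with the scaling. TMM scaling left the median gene at a log2 difference of -0.02, whereas scaling by library size moved it to -0.57 and gave 224 genes higher in females (2.41%) and 1240 in males (13.3%). With the hormone genes left out of the totals the median was -0.34 and the counts were 328 (3.62%) and 635 (7.01%). The same call stood under all 3 scalings for 223 genes higher in females (2.40%) and 284 higher in males (3.06%). Transcripts of other cell types moved with sex too: the leukocyte genes Tyrobp (14.4, 17.1, 2.64 and 2.35 CPM) and Fcer1g, both tested ones of 4, were higher in females, as were the haemoglobin gene Hbb (33.8, 36.8, 14.5 and 9.40 CPM) and the gonadotroph gene Lhb (293, 158, 28.4 and 58.0 CPM). Tyrobp, Fcer1g and Hbb did not hold under all 3 scalings. Lhb is a hormone gene and was not tested with the hormone genes out of the totals, so it could not hold under all 3. With library size alone 1 gene of its marker list was called toward females, as after TMM scaling. Genes of macrophages and of antigen presentation, looked at after their values were seen, did hold under all 3: C1qb (log2 difference 3.16), Lyz2 (3.29), Cd74 (3.49), RT1-Da (3.68), RT1-Db1 (3.78), C1qa (20, 27, 1 and 1 UMIs) and RT1-Ba (31, 51, 1 and 0 UMIs). Cd74, the invariant chain of the class II complex, stood at 109, 184, 8.58 and 18 CPM, and Lyz2, a lysozyme, at 52.6, 89.1, 8.58 and 5.48 CPM. Without the members that carried markers of another cell type, Lyz2 differed by 0.23 (edgeR adjusted p = 0.70) and Cd74 by 0.95 (edgeR adjusted p = 0.063), and the other 5 had too few UMIs to be tested. Without the doublets Cd74 differed by 3.64 and Lyz2 by 3.31. Leaving out those members gave 1064 genes, 910 of them among the 943, called the same way.

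Among the genes with the widest difference toward females, several were at 0 in males. Mzb1, a cochaperone of the ER known from antibody-secreting cells, stood at 40.7 and 80.3 CPM in females and at 0 in both male lanes, at least 55.9-fold higher (from 237 UMIs against a floor of 3 UMIs over the group). It was uneven, since 5 of the 54 cells with a Mzb1 UMI held 67.9% of its UMIs. Of those 54 cells, 1 was marked as a doublet and 4 carried markers of another cell type. Cntfr, the receptor subunit for ciliary neurotrophic factor, was at 32.3 and 39.4 CPM and at 0 in males (at least 33.3-fold). Apoa4, an apolipoprotein, was at least 16.0-fold higher and Pdgfrl at least 13.7-fold. A UMI of Apoa4 was found in 34 cells, 5 of which held 41.2% of its UMIs, and one of Pdgfrl in 45 cells, 5 of which held 19%. Nmb, the peptide neuromedin B, stood at 108, 119, 2.64 and 0.783 CPM, a log2 difference of 5.92 ± 0.30 (SE; edgeR adjusted p = 1.5e-09). S100g, a vitamin D-dependent calcium-binding protein, stood at 1274, 1373, 12.5 and 3.92 CPM, a log2 difference of 7.26 ± 0.17 (edgeR adjusted p = 9.7e-13). For Nmb, 5 of the 81 cells with a UMI held 46.3% of its UMIs. The aspartyl protease Bace2 had 89 UMIs in females and 1 in males (63.0-fold, interval 11 to 2515), LOC287167 had 227 and 2 (80.3-fold, 22.0 to 667) and LOC100911498 had 555 and 1 (393-fold, 70.2 to 15538). The intervals cover counting error only. Bace2 lost its call without the lane of 1868 cells and under DESeq2, and Pdgfrl without the lane of 1861 cells. LOC102555445, Spt1 and Mucl1 were called as well, at least 17.5-, 14.9- and 13.4-fold higher in females, but their UMIs came from 3, 6 and 2 cells.

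Toward males, the Y-linked Eif2s3y (at least 81.0-fold) was joined by Ddx3 (at least 32.5-fold), which RefSeq gives as a synonym of a Y-linked helicase. Sec14l3, a lipid transfer protein, stood at 3.97, 2.07, 138 and 135 CPM, a log2 difference of -5.45 ± 0.24 (edgeR adjusted p = 3.5e-10). Aldh1a1, an enzyme that makes retinoic acid, stood at 11.4, 3.63, 129 and 127 CPM, a log2 difference of -4.06 ± 0.26 (edgeR adjusted p = 2.2e-08). In cells thinned to 3000 UMIs, Aldh1a1 was found in 1.17% of female and 34.8% of male members, against 2.98% of unthinned leukocytes. Genes named here were chosen among those whose lanes did not overlap between the sexes, so the separation is no finding. Oasl2, an interferon-induced gene, stood at 3.97, 1.55, 69.3 and 76.8 CPM (log2 difference -4.67 ± 0.30), LOC691995 at 18.4, 17.6, 221 and 232 CPM (-3.65 ± 0.14) and the non-coding LOC102546373 at 0.993, 1.55, 33.0 and 32.9 CPM (-4.62 ± 0.40). Slitrk1, a synaptic adhesion protein (-4.08 ± 0.50), and Nrn1l (-4.10 ± 0.32) were also higher in males. Smim24 had 2 UMIs in females and 71 in males (50.2-fold, interval 13.4 to 422), and Gfra3, a receptor for artemin, had 3 and 54 (25.4-fold, 8.25 to 127). Cartpt, the precursor of the CART peptide, stood at 338, 54.9, 2162 and 2812 CPM (-3.65 ± 0.42, edgeR adjusted p = 9.8e-06), and the gap between the female lanes was wide. Cartpt did not pass under DESeq2.

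**Figure D3:**
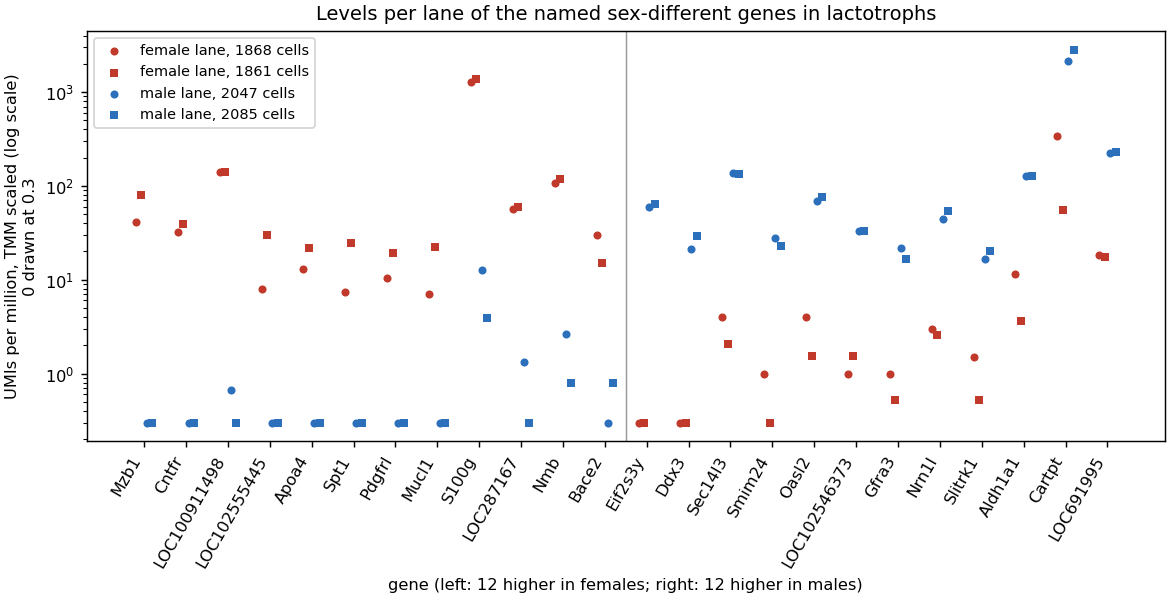
Levels of the 24 named sex-different genes in lactotrophs, 12 higher in females on the left and 12 higher in males on the right. Each point is 1 lane (female red, male blue), in CPM after TMM scaling on a log axis with values of 0 drawn at the foot; the rule chose genes whose lanes do not overlap between the sexes, and the female lanes of Cartpt lie apart, at 338 and 54.9 CPM.

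The genes of the early secretory pathway stood to the female side. Of 35 tested genes for ER folding and the unfolded protein response, 15 were higher in females and none in males, beside 7.07% and 3.08% of all genes, and the median log2 difference was 0.84 against -0.02 for all genes. Of 30 tested genes of the translocon and of signal peptide processing, 19 were higher in females and 1 in males, with a median of 0.90. Scaling by library size left 11 and 2 in the first list and 11 and 1 in the second, beside 2.41% and 13.3% of all genes. Creb3l1, a transcription factor that is cleaved from the ER membrane, stood at 224, 248, 13.9 and 16.5 CPM, a log2 difference of 3.96 ± 0.15 (edgeR adjusted p = 1.3e-10). It was the widest of the ER list. P4hb, a protein disulphide isomerase, stood at 562, 587, 164 and 212 CPM (1.62 ± 0.10), Pdia6 at 765, 741, 221 and 282 CPM (1.59 ± 0.10) and the cochaperone Dnajc3 at 350, 384, 90.5 and 105 CPM (1.91 ± 0.10). The secreted ER factor Manf stood at 846, 921, 328 and 320 CPM (1.45 ± 0.07), Hsp90b1 differed by 1.36 ± 0.08 and Calr by 1.12 ± 0.07. The main chaperone did not share the difference: Hspa5 (BiP) stood at 317, 296, 318 and 304 CPM (-0.02 ± 0.08, edgeR adjusted p = 0.88), and its lanes overlapped. The factor Xbp1 (0.24 ± 0.10, edgeR adjusted p = 0.081) and the chaperone Canx (0.22 ± 0.10, edgeR adjusted p = 0.12) did not pass the test. In the translocon list, Ostc, a subunit of the oligosaccharyltransferase, stood at 1185, 1355, 282 and 311 CPM (edgeR adjusted p = 1.4e-10), Ssr4 of the translocon-associated complex at 3054, 3142, 773 and 955 CPM (1.84 ± 0.08) and the channel subunit Sec61b at 1772, 1930, 836 and 923 CPM (1.07 ± 0.07). The exception was Srp14 of the signal recognition particle, at 554, 564, 864 and 828 CPM (-0.60 ± 0.07). Because female members held more Prl and more UMIs, the test was also run in cells matched on each. Among members with 15 to 30% Prl, 9 of 34 ER and 12 of 30 translocon genes were higher in females, beside 4.80% of all genes in that fit. Among members of 8000 to 16000 UMIs, 10 of 29 and 12 of 30 were, beside 3.37%. Without the cycling members described below the counts were 19 of 35 and 25 of 30, beside 8.69%.

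Promoters of the ER list are shown because 8 of the 27 with a promoter in RefSeq held the ER stress response element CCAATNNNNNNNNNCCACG (29.6%), which 0.234% of the promoters of tested genes and 0.0786% of all rat promoters held. The list is made of genes of this response, and a match of letters is not a binding site. Of the 8, Hsp90b1, Calr, Dnajc3, Creld2 and Derl3 were higher in females (5 of 11 such genes with a promoter, 45.5%), while Hspa5, Canx and Xbp1 did not pass the test (3 of 16). Among the promoters of all genes higher in females 6 of 441 held it (1.36%), and among those higher in males 0 of 189, too few to compare. The capitals mark the element, on the strand of the gene or, for Calr, Creld2 and Derl3, on the opposite one. Coordinates are GRCr8, and Hsp90b1 held a further match nearer its start.
Hsp90b1, chr7:23012431-23012489, minus strand: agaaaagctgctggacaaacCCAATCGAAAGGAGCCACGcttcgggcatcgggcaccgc
Calr, chr19:40213117-40213173, plus strand: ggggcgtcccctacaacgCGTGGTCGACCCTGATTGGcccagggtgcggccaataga
Dnajc3, chr15:102432514-102432572, plus strand: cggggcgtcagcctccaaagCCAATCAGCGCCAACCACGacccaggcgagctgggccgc
Creld2, chr7:121789219-121789277, plus strand: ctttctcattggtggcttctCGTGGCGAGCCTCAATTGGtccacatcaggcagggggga
Derl3, chr20:12766581-12766639, minus strand: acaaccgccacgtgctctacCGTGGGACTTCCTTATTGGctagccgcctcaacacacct
Hspa5, chr3:38452953-38453011, plus strand: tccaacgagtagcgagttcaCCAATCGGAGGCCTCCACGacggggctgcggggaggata
Canx, chr10:35158049-35158107, minus strand: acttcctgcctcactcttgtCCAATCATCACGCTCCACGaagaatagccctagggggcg
Xbp1, chr14:84604538-84604596, plus strand: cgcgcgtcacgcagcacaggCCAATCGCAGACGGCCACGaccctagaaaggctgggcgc

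Somatotrophs served to ask whether these differences were also present in a related secretory cell. The difference of the sex differences was tested as an interaction over 12097 genes, and 467 (3.86%) lay more to the female side in lactotrophs and 246 (2.03%) more to the male side. With library size alone this split turned to 180 and 1093. With 1 lane left out it was 360 and 124 (without that of 1868 cells), 327 and 123 (1861), 221 and 93 (2047) and 270 and 101 (2085). In the ER list 17 of 36 genes lay more to the female side in lactotrophs and none to the male side, and in the translocon list 16 and 1 of 30 did. The median sex difference of the same lists in somatotrophs was -0.14 and 0.09, and 3.45% and 2.15% of all genes tested there were higher in females and in males. P4hb differed by -0.10 in somatotrophs, an interaction of 1.72 ± 0.12 (edgeR adjusted p = 1.2e-08), and Creb3l1 by 0.42, an interaction of 3.55 ± 0.16 (edgeR adjusted p = 1.3e-10). Nmb turned its direction: it was higher in male somatotrophs (-2.01) and higher in female lactotrophs (interaction 7.97 ± 0.36, edgeR adjusted p = 1.2e-10). Ptprn, a membrane protein of dense granules, likewise differed by 1.42 in lactotrophs and -0.80 in somatotrophs (interaction 2.23 ± 0.11). The reverse turn was seen for Pcsk2, a prohormone convertase, at -3.39 in lactotrophs and 1.64 in somatotrophs (interaction -5.05 ± 0.45). Igf1, the insulin-like growth factor, was higher in female somatotrophs by 2.75 but stood at 71.5, 73.0, 80.6 and 79.9 CPM in lactotrophs (interaction -2.89 ± 0.23, edgeR adjusted p = 1.3e-07). Of the genes tested in both cell types, 174 were higher in females in both (27.4% of those of lactotrophs and 45.2% of those of somatotrophs) and 37 were higher in males in both (14.6% and 16.4%), while 29 and 23 had opposite calls.

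**Figure D4:**
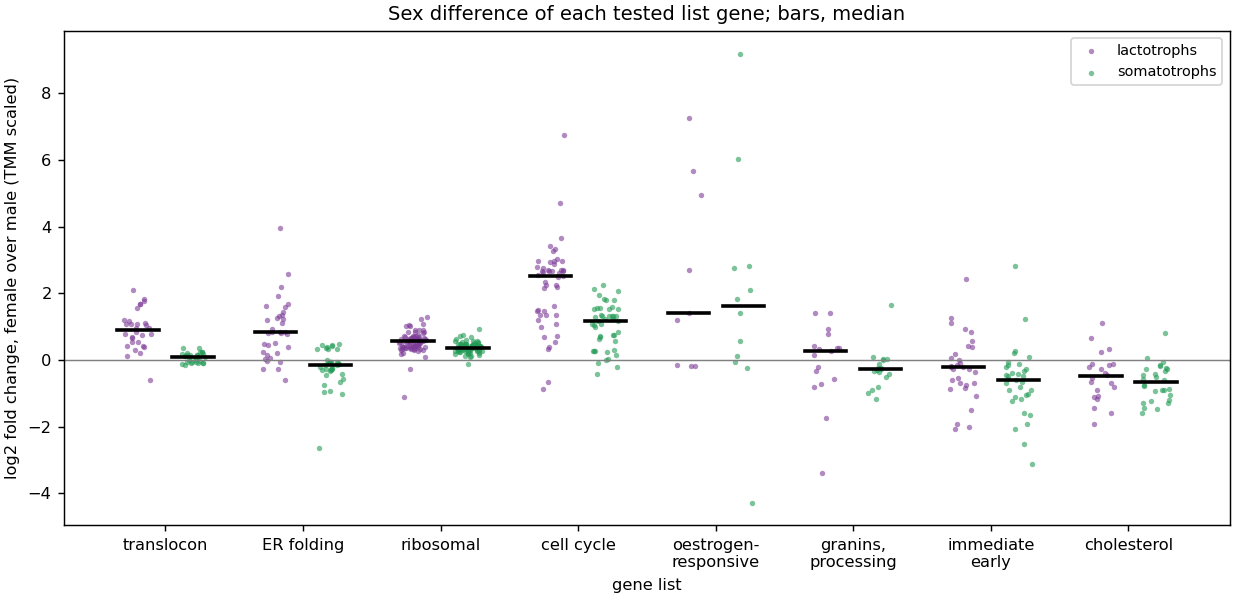
Sex differences of gene lists in lactotrophs and somatotrophs. Each point is 1 tested gene at its log2 difference (female over male, TMM scaling) and each bar is a list's median. The ER folding and translocon lists have medians of 0.84 and 0.90 in lactotrophs and of -0.14 and 0.09 in somatotrophs.

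The granins and prohormone-processing genes were divided, with 4 of 17 higher in females and 4 in males after TMM scaling, beside 7.07% and 3.08% of all genes. They were 2 and 7 with library size alone, beside 2.41% and 13.3%, and 2 and 6 with the hormone genes out of the totals, beside 3.62% and 7.01%. The list's median turned from 0.27 to -0.29 with library size. The granins Chgb (4248, 4603, 3586 and 3298 CPM; 0.36 ± 0.06) and Scg2 (3175, 3049, 2233 and 2596 CPM; 0.37 ± 0.07) were slightly higher in females after TMM scaling and at -0.19 each, not called, with library size alone. Higher in females under all 3 scalings were Ptprn (1.42 ± 0.09) and Nucb2, the precursor of nesfatin (750, 834, 267 and 325 CPM; 1.42 ± 0.09). Chga (296, 297, 396 and 590 CPM; -0.73 ± 0.13), Vgf (38.7, 40.9, 109 and 161 CPM; -1.75 ± 0.18), Pcsk2 (-3.39 ± 0.44) and Resp18 (2685, 2656, 4530 and 4910 CPM; -0.82 ± 0.06) were higher in males. The convertase Pcsk1 did not pass the test (48.7, 59.0, 31 and 32.1 CPM; edgeR adjusted p = 0.0068). Among 35 genes of the exocytosis machinery, the granule GTPases Rab3d (136, 134, 34.3 and 42.3 CPM; 1.83 ± 0.15) and Rab26 (1.99 ± 0.35) were higher in females, and Rab3b (-2.61) and the SNARE protein Snap25 (121, 113, 269 and 262 CPM; -1.18 ± 0.10) in males. These were 2 and 2 of the 35 after TMM scaling, 1 and 12 with library size alone and 1 and 4 with the hormone genes out of the totals, beside the same shares of all genes, and the TMM counts lie near theirs.

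The receptors and factors that control the cell type were looked at next, beside 7.07% of all genes called toward females and 3.08% toward males. The oestrogen receptor Esr1 stood at 41.2, 46.1, 42.3 and 47.8 CPM (-0.04 ± 0.18, edgeR adjusted p = 0.90), with overlapping lanes. Pou1f1 stood at 492, 541, 479 and 403 CPM (0.23 ± 0.09, edgeR adjusted p = 0.072) and the progesterone receptor Pgr at 14.9, 14.0, 5.28 and 5.48 CPM (1.41 ± 0.37, edgeR adjusted p = 0.0093), and neither passed the test. Six6, at 738, 788, 991 and 1037 CPM, was the only one of 19 pituitary transcription factors called after TMM scaling, higher in males (-0.41 ± 0.07, edgeR adjusted p = 0.00028). With library size alone 8 of the 19 were higher in males, beside 13.3% of all genes, and with the hormone genes out of the totals 4, beside 7.01%. Agtr1b, Hepacam2 and Drd2 did not pass the test after TMM scaling, while Agtr1b (-0.75) and Hepacam2 (-0.51) were called toward males with library size alone. Of 21 nuclear receptors, none was higher in females and Thra, Nr4a1 and Rorb were higher in males. Of 14 tested receptors for hypothalamic and local factors, 2 were higher in females (Drd4 and Grik1) and 2 in males. Of 9 tested genes known to respond to oestrogen, Gal, S100g, Klk1 and Pttg1 were higher in females and none in males (median 1.41). With library size alone 4 were called toward females and 1 toward males, beside 2.41% and 13.3% of all genes. In somatotrophs 6 of 12 were higher in females and 1 in males (median 1.63), beside 3.45% and 2.15%. The interaction passed for 2 of 12 toward females in lactotrophs and for 2 toward males.

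Cell cycle genes stood to the female side. Of 48 tested, 29 were higher in females and 2 in males, with a median log2 difference of 2.52, beside 7.07% and 3.08% of all genes. The count toward females was 14 with library size alone (2.41% of all genes), 17 with the hormone genes out of the totals (3.62%) and 13 under DESeq2 (5.41% of the genes it gave an adjusted p), and 19 to 38 with 1 lane left out, the lowest without the lane of 1868 cells. Mki67, the proliferation marker, stood at 41.2, 24.3, 2.64 and 2.35 CPM (3.67 ± 0.44, edgeR adjusted p = 1.5e-05), the topoisomerase Top2a at 59.1, 45.1, 8.58 and 4.70 CPM (2.93 ± 0.30) and the mitotic kinase Cdk1 at 125, 65.3, 4.62 and 19.6 CPM (3.04 ± 0.40). These UMIs came from few cells. Members with a UMI of at least 2 of Mki67, Top2a and Cdk1, called cycling here, numbered 20 (14.9%), 11 (8.94%), 2 (1.39%) and 2 (1.59%), and 13, 5, 2 and 0 when every cell was thinned to 3000 UMIs. Without the cycling members 17 of the 48 genes were still tested, none of them higher in females and 3 in males, beside 8.69% and 3.39% of all genes. The cells left out were picked by 3 genes of the list, so this loss was largely set by the choice. The list also lay to the female side in somatotrophs (median 1.17), and the interaction passed for 1 gene, Mki67 (3.01 ± 0.52, edgeR adjusted p = 0.00053), toward females in lactotrophs and for 2 toward males. The 2 genes of the list higher in males were Smc2 (-0.66) and Stmn1, which destabilises microtubules, at 786, 673, 1277 and 1365 CPM (-0.86 ± 0.08).

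Immediate early, cholesterol and imprinted genes had more calls toward males. Of 31 immediate early genes, which cells switch on soon after stimulation, 7 were higher in males and none in females, beside 3.08% of all genes toward males. With library size alone 14 were higher in males, beside 13.3%, and with the hormone genes out of the totals 12, beside 7.01%. DESeq2 gave 5 higher in males, beside 108 of 7713 genes, and 1 in females, beside 5.41%. In somatotrophs 15 of 34 were higher in males (median -0.59), beside 2.15% of all genes tested there. Fos stood at 1626, 1291, 2823 and 2372 CPM (-0.83 ± 0.10), Npas4 at 19.9, 7.25, 58.1 and 52.5 CPM (-2.01 ± 0.30) and Arc at 43.2, 25.4, 145 and 115 CPM (-1.92 ± 0.20), whereas Egr1 stood at 324, 186, 317 and 218 CPM (edgeR adjusted p = 0.82). When the members with markers of another cell type were left out, 14 of 29 immediate early genes were higher in males, beside 3.69% of all genes, and with 15 to 30% Prl 2 of 23 were, beside 1.18%. Of 22 genes of cholesterol synthesis and uptake, Hmgcs1 (-1.91), Msmo1 (-1.59), Insig1 (-1.44) and Npc2 (-1.11) were higher in males and none in females, beside the same 3.08%. DESeq2 called 1 of this list toward males, beside 108 of the 7713 genes it gave an adjusted p. The test without the lane of 1868 cells called 1, beside 155 of 8867 genes, and library size alone 8, beside 13.3%. In somatotrophs 9 of 28 were higher in males (median -0.67), beside 2.15% of all genes tested there. Of 11 imprinted genes 3 were higher in males (Nnat, Ndn and Nap1l5) and 1 in females (Gnas, by 0.41, after TMM scaling only), beside 3.08% and 7.07%. Nnat (19.4, 19.2, 146 and 131 CPM; -2.84 ± 0.16) and Ndn (15.9, 23.3, 60.7 and 56.4 CPM; -1.58 ± 0.21) differed most. In somatotrophs they differed by -0.09 and 0.07, an interaction of -2.76 ± 0.17 and -1.66 ± 0.19. Enzymes of detoxification and retinoid handling were divided, with 6 of 30 higher in females and 4 in males, beside 7.07% and 3.08% of all genes. With library size alone 4 and 7 of these enzymes were called, beside 2.41% and 13.3%. Among them the retinol carrier Rbp4 (129, 176, 12.5 and 6.27 CPM; 3.97 ± 0.25) and the metallothionein Mt3 (885, 1268, 193 and 143 CPM; 2.67 ± 0.15) were higher in females, opposite to Aldh1a1. Rbp4 is also a marker of somatotrophs, in which it was higher in males (-1.31).

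For the genes of the ribosome and of oxidative phosphorylation the counts moved with the scaling. Of 81 ribosomal protein genes 73 were higher in females after TMM scaling (median 0.57) and none in males, beside 7.07% and 3.08% of all genes. With the hormone genes out of the totals the counts were 30 and 0, beside 3.62% and 7.01%, and with library size alone 12 and 6 (median 0.01), beside 2.41% and 13.3%. Of 85 nuclear genes of oxidative phosphorylation 25 were higher in females and none in males after TMM scaling, 9 and 4 with the hormone genes out of the totals, and 2 and 16 with library size alone, beside the same shares. Its median turned from 0.26 to -0.30 with library size. Of the 13 genes of the mitochondrial genome, 10 were higher in females after TMM scaling and 3 under all 3 scalings, and none in males. Somatotrophs had 72 of 82 ribosomal protein genes higher in females and none in males (median 0.38), beside 3.45% and 2.15% of all genes tested there. Of the mitochondrial genome 7 of 13 were higher in females there, and of oxidative phosphorylation 1 of 87, with 3 higher in males. The interaction passed toward females in lactotrophs for 20 of 81 ribosomal, 23 of 87 oxidative phosphorylation and 8 of 13 mitochondrial genes.

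Lactotrophs also varied among themselves in Prl. Within each lane, the members with the most Prl (44, 41, 48 and 42 cells) were set against as many with the least. The median Prl share went from 18.8 to 42.6%, 16.9 to 43.5%, 5.97 to 27.4% and 7.38 to 28.2%. Of 3240 genes frequent enough to compare, 552 (17.0%) were higher and 415 (12.8%) lower in the Prl-rich members in all 4 lanes. Levels here are per UMI outside the hormone genes, so Prl did not enter the totals. Per UMI of all kinds each ratio would be lower, because the Prl share rose in each lane. Whether the directions of the lists hold on that measure was not tested. Prl sorted the cells, so these are descriptions without a test. Genes of prolactin's packaging were mostly higher in the Prl-rich members, and so were genes of the mitochondrial genome, 9 of 11 in all 4 lanes and none lower (median 0.33). The mitochondrial share of UMIs went the other way in each lane. From Prl-poor to Prl-rich members it went from 4.1 to 3.6%, 4.6 to 3.3%, 3.3 to 3.2% and 3.8 to 3.3%. That share is of all UMIs, Prl included, whereas the ratios of the genes left the hormone genes out of the totals. The direction for the mitochondrial genes thus depended on the totals used. The part of cell state or RNA quality in the differences between Prl-rich and Prl-poor members was not tested. Among granins and prohormone-processing genes 10 of 14 were higher in all 4 lanes and none lower (median log2 difference 1.0, against 0.04 for all genes). Chgb was higher by 1.80, 1.91, 2.58 and 1.83 on the log2 scale and Scg2 by 1.19, 1.42, 1.92 and 1.63. Of 25 ER folding genes 18 were higher and 1 lower in all 4 lanes (median 0.46), with Pdia6 higher by 0.82, 0.81, 0.77 and 0.65. Of 30 translocon genes 18 were higher and none lower (median 0.43), with Ddost of the oligosaccharyltransferase higher by 0.99, 0.98, 0.90 and 1.24. Agtr1b was higher by 1.19, 1.11, 0.27 and 0.69.

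Ribosomal protein genes went the other way, with 65 of 77 lower in the Prl-rich members of all 4 lanes (median -0.22). Of 20 cell cycle genes 8 were lower and none higher (median -1.30), beside 12.8% of all genes. Without the cycling members 2 of 20 were lower (median -0.21), and at 3000 UMIs per cell 3 of 20. Ube2c, a ubiquitin-conjugating enzyme of mitosis, differed by -5.57, -7.29, -0.35 and -0.32, and its size rested on the female lanes. Igfbp5, Hes1 and Zfp36l1 were the other genes that differed most (means -3.55, -3.31 and -2.86), but without the members that carried markers of another cell type they differed by -0.02, -0.97 and -0.61. Those members were 3, 6, 4 and 0 of the Prl-poor and 3, 2, 1 and 0 of the Prl-rich cells. Depth, Prl included, was higher in the Prl-rich members of both male lanes and of 1 female lane: the median UMIs were 14578 and 15736, 20045 and 16965, 6079 and 10753, and 5774 and 9068 in the Prl-poor and Prl-rich members. Without the hormone genes the medians were 11553 and 9175, 17627 and 9600, 5719 and 7840, and 5228 and 6712. They were thus lower in the Prl-rich members of both female lanes. At 3000 UMIs per cell, 434 genes were higher and 308 lower in all 4 lanes, and the counts were 9 of 14 granins, 12 of 25 ER genes and 11 of 30 translocon genes higher, with medians of 1.08, 0.46 and 0.45.

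**Figure D5:**
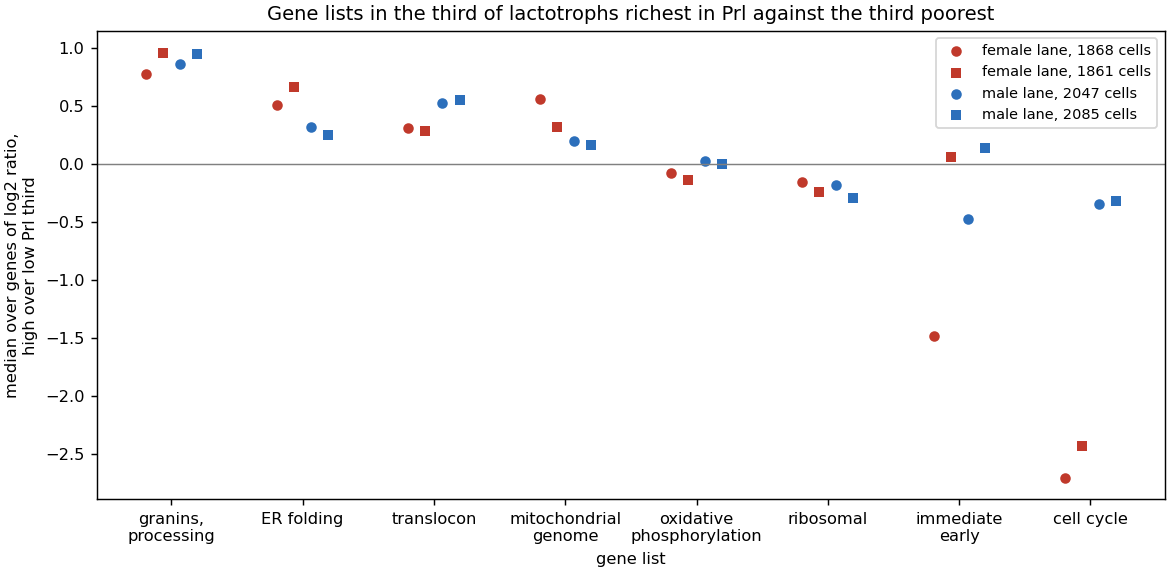
Gene lists in Prl-rich against Prl-poor lactotrophs. Each point is a list's median log2 ratio in 1 lane (female red, male blue), and a value above 0 means higher in the Prl-rich members. Levels are per UMI outside the hormone genes. Granins lie between 0.78 and 0.96 in the 4 lanes and ribosomal protein genes below 0 in each, while immediate early genes differ in sign between lanes and cell cycle genes lie far lower in the female lanes.

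The gene with the widest difference toward Prl-rich members was Cartpt, higher by 7.43, 4.90, 9.76 and 3.27 on the log2 scale, and it came from few cells: 20 members held 94.5% of its UMIs. At least 10 UMIs of Cartpt were found in 33 members (4, 1, 14 and 14 per lane), none of them marked as a doublet or carrying markers of folliculostellate cells, leukocytes, endothelium or erythrocytes. In males, the 28 such cells had a median Prl share of 26.9%, against 13.4% in the other male members, and a median of 10778 UMIs against 7215. Their summed CPM of Vgf was 13.2-fold, of Dcn, a small proteoglycan that also marks pericytes, 30.7-fold, of Pcsk2 12.7-fold, of Pon2 13.7-fold, of Chga 3.52-fold, of Chgb 3.45-fold and of Scg2 3.75-fold that of the other male members. The 5 female cells likewise held 47 of the 157 Vgf UMIs and 28 of the 47 Dcn UMIs of their sex. Of the list of 8 pericyte and posterior lobe markers, Dcn had a UMI in 29 of the 33 cells (204 UMIs) and in 31 of the other 494 members, Lum had 24 UMIs in 1 of the 33, and Col1a1 and the other 5 had none in them. The part of other cells in this group was not tested further. Dcn, Vgf and Pcsk2 were thus concentrated, like Cartpt, in a small set of cells that was more frequent among male lactotrophs. The cells were chosen by Cartpt after its values were seen, and no test is given.

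Clustering of the members gave 5 clusters at a resolution of 0.5 (8 at 1.0, and 3 at 0.2, of 278, 218 and 31 cells, where the groups led below by Cartpt and LOC287167 were not apart), which mostly followed the sexes. The cluster of 234 cells held 9 female cells, was led by Igfbp5, Klf6 and Hes1, and held 14 of the 26 members with markers of another cell type and 6 of the 8 doublets. The cluster of 186 held 182 female cells, was led by Cd74, Gal and Lyz2, and held 11 of those members and 2 doublets. Of the smaller ones, 42 cells (5 female) were led by Cartpt, Vgf and Dcn, and 31 cells (27 female) by Cks2, Ube2c and Cdk1, genes of cell division. A further 34 cells, all female, were led by LOC287167, the calcium-binding parvalbumin Pvalb and S100g. At least 2 UMIs of LOC287167 were found in 19 members, 9 and 10 in the female lanes, whose depth (median 22163 UMIs) was above that of the other female members (16958). The genes that lead a cluster were used to form it.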

How the data were processed

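Pituitary cells of each sex were captured with the 10X Chromium 3′ method. The authors aligned and counted the reads against an extended rat reference and joined the lanes with Cell Ranger 2.1, which subsampled reads to equal mapped depth per lane. The deposited values are UMI counts per gene and cell, not normalized. Lanes were told apart by barcode suffix and given a sex by the cell numbers that the study's methods state. No barcode was removed; doublets were scored and kept.

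Members and gene lists were chosen with earlier results of these data known. Counts of members were summed per lane and tested with edgeR 4.0.16 (R 4.3.3; TMM factors, filterByExpr with a minimum count of 10, quasi-likelihood F test, adjusted p below 0.001); SE is the log2 difference divided by the square root of F. DESeq2 1.42.0 was an alternative. The hormone genes of the rule were not tested. Named genes were the 20 highest ratios to the next group, the 12 widest called differences toward each sex among genes with at least 50 UMIs in the members and lanes of the sexes that did not overlap, the 6 widest interactions each way, and the 8 widest differences each way with Prl level (at least 200 UMIs), beside list members; other names were chosen after their values were seen. Clusters used scanpy 1.11.5 at a resolution of 0.5. In data simulated from these lanes (9294 genes), 35.5% of 2-fold and 96.0% of 4-fold changes were recovered with 0 false calls. The simulation gave every gene the same spread between lanes and as many changes toward females as toward males. It held no shift in total RNA like that of Prl, so its false calls do not cover errors of scaling or genes held in few cells. Intervals and floors (3 counts) cover counting error only. Promoter letters came from RefSeq GRCr8; no coordinate of the deposited data was used. Some receptor genes are not reported here.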

Additional observations from a re-analysis of the deposited data

Results flagged for a closer look

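The sex difference of 713 genes differed between lactotrophs and somatotrophs by the interaction test, and 18 of them are among the genes with the widest differences. Values are log2 differences of the sex difference, lactotrophs minus somatotrophs, and those of genes at 0 in a group depend on the fit's prior count. More to the female side in lactotrophs were Mzb1 (11.98), Cntfr (10.10), Gpt2 (8.46, from 23 female UMIs and 0 male), Cdk14 (8.26, from 16 female UMIs and 0 male), Nmb (7.97) and Drd4 (7.53). More to the male side were Iqca1 (-7.73, from 18 male UMIs and 0 female), Smim24 (-5.65), Pcsk2 (-5.05), LOC102553536 (-4.91), Igsf21 (-4.77), Cpne5 (-4.49), Slitrk1 (-4.17), Nrn1l (-4.15), LOC691995 (-3.99), LOC102546373 (-3.73), Sec14l3 (-3.64) and Aldh1a1 (-3.30).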

How the results depend on the processing

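The lactotroph test gave 943 genes. DESeq2 gave 525 (417 higher in females and 108 in males), scaling by library size 1464, no filter on low counts 1553, cells thinned to 3000 UMIs 576 and an adjusted p below 0.05 2555. Alternatives added after seeing the data gave 359 genes in members with 15 to 30% Prl and 207 in members of 8000 to 16000 UMIs, with fewer cells and genes in each. Leaving out 1 lane at a time gave 713 to 1177 genes. Its direction split moved from 69.7% toward females to 15.3% under library size. The interaction gave 713 genes, 1273 under library size (65.5% and 14.1% of them toward females), and 314 to 484 with 1 lane left out: 450 without the lane of 1861 cells, 314 without that of 2047 and 371 without that of 2085. In somatotrophs 687 genes became 1063 to 1178 with 1 lane left out. The cause of these changes was not tested. Among the genes named for the widest differences none changed direction in any alternative run, 442 planned values kept their call and 36 lost it. Of all 943 called genes 72, with log2 differences of 0.30 to 0.56, changed direction under library size, 3 of them called toward males, and 4 did with the hormone genes out of the totals. The balance of the granin, exocytosis, ribosomal and oxidative phosphorylation lists moved under library size. LOC102555445, Spt1 and Mucl1 lost it under 4 alternatives each, among them both other scalings. Cartpt lost it under DESeq2, with equal numbers of cells per lane and at 8000 to 16000 UMIs. Bace2 lost it under DESeq2 and without the lane of 1868 cells, Pdgfrl without that of 1861, and the interactions of Gpt2, Cdk14 and Iqca1 without any lane of the 4. No paired analysis was possible because the barcode suffixes do not show which lane is replicate 1 or 2 of its sex. In the interaction, a term for the lane shared by both cell types gave 695 genes, 645 of them among the 713. Depth limits low genes in male members, at 2332633 UMIs in all against 4829546 in female members.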

Other observations

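Other lists gave these counts of genes higher in females and in males, beside 7.07% and 3.08% of all genes tested, and several lie near that share. Secreted peptides and growth factors gave 4 (Gal, Nmb, Bdnf, Cxcl14) and 3 (Cartpt, C1qtnf4, Sostdc1) of 29. Potassium channels gave 1 (Kcnk1) and 2 (Kcnk2, Kcnip4) of 19, and other cation channels 0 and 1 (Asic4) of 20. Of 42 genes of cAMP and G protein signalling, 2 (Gnas, Rgs1) and 4 (Gng3, Pde1a, Rgs2, Prkar1a) were called. S100 and other calcium-binding proteins gave 3 (S100g, Pvalb, S100a10) and 1 (Vsnl1) of 15, cell adhesion genes 0 and 4 (Negr1, Pcdh19, Thy1, Epcam) of 27, and a list of D cyclins, their inhibitors and related regulators 1 (Pttg1, the securin of mitosis, neither a D cyclin nor an inhibitor of their kinases) and 1 (Ccnd2) of 13. None of the 12 tested genes for activin, BMP and TGF-beta signalling was called. These counts are after TMM scaling. Library size alone gave more calls toward males in each of these lists except that of activin, BMP and TGF-beta signalling. Examples are 10 of the cAMP list and 8 of the adhesion list, beside 13.3% of all genes. Markers of the pericyte and posterior lobe list summed to 12.2, 7.56, 86.8 and 124 unscaled CPM in the members, with 4 of 8 at 0 and Dcn as the most abundant.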
